A study of Drosophila melanogaster with 4 samples.

Results

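Heat shock proteins are molecular chaperones. They hold or refold unfolded proteins, and many of their genes are switched on by the heat shock factor Hsf when proteins unfold under heat or other stress. Their cognates are close relatives that cells make all the time. Hsp70 proteins and their cognates bind and release short stretches of unfolded chains in cycles driven by ATP, J proteins deliver substrates to them and start the ATP cycle, Hsp90 acts later on folded clients such as kinases and receptors, and small Hsps hold unfolded proteins without ATP. The genes described here are 10 heat shock proteins and cognates of *Drosophila melanogaster*. They were chosen by name and not by a measured value, with earlier results of these data known. They are the small Hsp genes *Hsp22*, *Hsp23*, *Hsp26*, *Hsp27* and *l(2)efl*, the Hsp70 family genes *Hsp68*, *Hsc70-3* and *Hsc70-4*, the Hsp90 gene *Hsp83* and the J protein gene *DnaJ-1*. Of these, 9 were measured among the 13608 genes considered, and *Hsp22* was not analysed here. In dm6 coordinates *Hsc70-4* lies at chr3R:15242687-15246614 on the forward strand, *Hsc70-3* at chrX:11801696-11807117 on the reverse strand, *Hsp83* at chr3L:3192969-3197059 on the forward strand, *DnaJ-1* at chr3L:5750029-5752189 and *Hsp68* at chr3R:24055080-24057310, both on the reverse strand. Each transcript set of these 5 genes has 1 annotated 3′ end.

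The 4 replicates are 3′-seq libraries of polyadenylated head RNA from adult flies that the paper calls wild type. They form a single group with no control or treated group. The flies were grown at 25°C and snap frozen before the heads were taken. The levels are thus those of animals not exposed to a heat shock by the protocol. For 3′-seq the paper refers to its preparation of input for RNA immunoprecipitation. That preparation starts from head powder cross-linked with UV light. The lysate is cleared by centrifugation, and the input is digested with proteinase K before RNA is purified. The effect of these steps on the levels was not tested. The series record speaks of independent lines, whereas the sample labels name replicates only, and p-values below measure the spread between these samples. In 3′-seq a read marks the end of a transcript, so that a count does not grow with transcript length, and levels of different genes are compared here as counts per 1000000 counts on genes (CPM).

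The libraries held 8753359 to 13434565 counts. With this scaling the median gene stood 0.20 above its own mean on the log2 scale in replicate 1 and 0.13 above it in replicate 4, against -0.21 in replicate 3 and -0.05 in replicate 2, over the 7754 genes that reached 10 counts in each library. Per-replicate differences of a gene below are to be read against these shifts. Neuron and photoreceptor markers were all detected in every replicate, with sums of 2127 to 3748 CPM for 5 neuron genes and 27170 to 37259 CPM for 6 photoreceptor genes. Many markers of tissues outside the head were highest in replicate 1, namely 8 of 9 for midgut, 10 of 10 for male accessory gland, 5 of 6 for testis, 4 of 5 for flight muscle and 3 of 6 for ovary. Of the 7754 genes, 35.3% were highest there. So were 3 of 5 neuron, 4 of 6 photoreceptor, 3 of 4 glial and 0 of 4 head fat body markers. The flight muscle gene *Act88F* had 283 CPM there, against 6.74 to 38.3 CPM in the others, although the flight muscle sum (3185 to 8163 CPM), most of which is *Mlc2*, and the ovary sum (5.62 to 13.5 CPM) were highest in replicate 2. In replicate 1 the 9 midgut genes summed to 868 CPM, against 95.4 to 151 CPM in the other libraries. The 10 male accessory gland genes summed to 645 CPM against 9.62 to 112 CPM, and the 6 testis genes to 133 CPM against 6.05 to 25.4 CPM. Bulk RNA does not separate fewer cells of a type from less RNA per cell.

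The 9 measured genes are split here into a group of high and a group of low level, with *Hsp68* far below all others. *Hsc70-4*, *Hsc70-3*, *Hsp83*, *l(2)efl* and *DnaJ-1* had mean levels of 67.2 to 440 CPM, and *Hsp27*, *Hsp23*, *Hsp26* and *Hsp68* had mean levels of 1.46 to 12.5 CPM. The median of the 9 was 67.2 CPM, against 10.8 CPM over the 11890 genes with a count in any replicate. All 9 together took 0.110% of the counts on genes, and the 3 Hsp70 family genes made up 63.4% of that sum. The minimum of 10 counts in each library was met by 8 of them and missed by *Hsp68*.

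**Figure D1:**
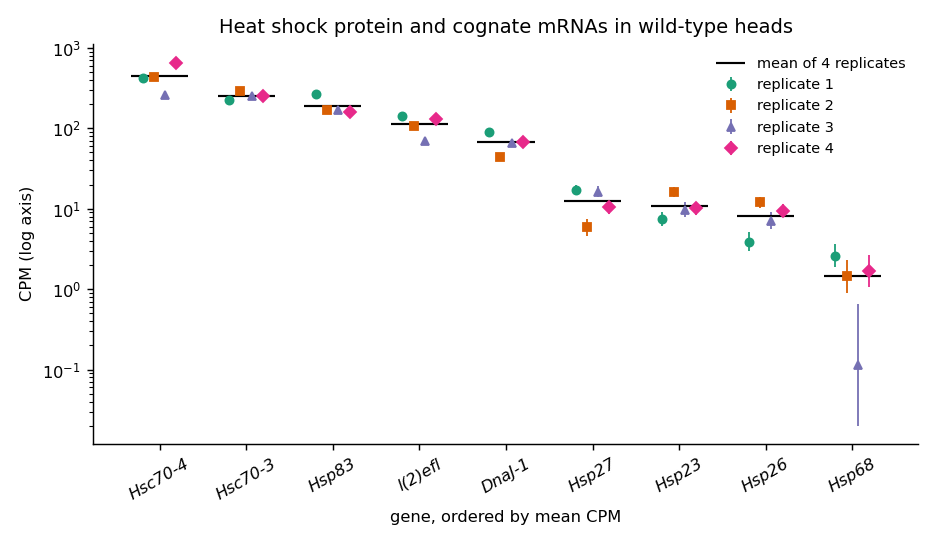
CPM of each measured heat shock protein and cognate gene in each of the 4 wild-type head replicates, on a log axis, with 95% Wilson intervals for counting error and the mean as a black line. The 5 genes on the left all lie above 40 CPM in each library, and the 4 on the right all lie below 20 CPM.

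*Hsc70-4* encodes the main constitutive cytosolic Hsp70, which at synapses also works with the J protein Csp, and was the most abundant of the set. It had 416, 438, 259 and 648 CPM in replicates 1 to 4, a mean of 440 ± 160 CPM (SD, n = 4), and ranked 375 among the 11890 genes with a count. Replicate 4 was highest and replicate 3 lowest, and no interval of counting error in a library overlapped that of either of these. *Hsc70-3* encodes BiP, the Hsp70 of the endoplasmic reticulum. It had 226, 288, 249 and 255 CPM in replicates 1 to 4, a mean of 254 ± 25.7 CPM (SD, n = 4). Its highest replicate was 1.28 times the lowest, the smallest ratio of the set when scaled by library totals. With TMM scaling the ratio was 1.56, above 1.501 for *l(2)efl* and 1.54 for *Hsp83*, so this rank depends on the scaling. Within each library *Hsc70-4* was 1.84, 1.52, 1.04 and 2.54 times *Hsc70-3*, so that the order of this pair was kept in all 4 replicates but was nearly level in replicate 3.

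*Hsp83* encodes the cytosolic Hsp90, which is abundant without stress and is raised further by heat. Its levels were 264, 170, 169 and 161 CPM in replicates 1 to 4, a mean of 191 ± 49.0 CPM (SD, n = 4). Replicate 1 stood apart from the other 3 libraries, which lay close together. The mean without replicate 1 was 167 CPM. With TMM scaling the 4 values were 229, 180, 199 and 149 CPM, and replicate 1 was highest but no longer apart. The summed midgut, accessory gland and testis markers given above were highest in the same library, as were 3 of the 4 glial markers. The glial sum, mostly *Gs2*, was 2767 CPM in replicate 1 against 1385 to 1980 CPM in the others, and *repo* was highest in replicate 4, at 37.2 CPM against 22.9 CPM in replicate 1. Their part in the level of *Hsp83* was not tested. The annotated 3′ end of *Hsp83* overlaps that of *CG14966* on the opposite strand by 15 bp, and the strand setting of the counting is not given in the sources used here. *CG14966* had 15.7 to 26.05 CPM, and its lowest value was also in replicate 4.

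*DnaJ-1* encodes the fly Hsp40, a J protein that stimulates the ATP cycle of Hsp70 and is itself induced by heat. It had 90.2, 44.1, 66.3 and 68.3 CPM in replicates 1 to 4, a mean of 67.2 ± 18.9 CPM (SD, n = 4). Replicate 1 was highest and replicate 2 lowest, as for *Hsp27*. With the size factors of DESeq2 replicate 3 was highest instead for *DnaJ-1*, at 79.4 CPM against 78.5 CPM in replicate 1. The counts of *Hsc70-4* were 4.61, 9.94, 3.91 and 9.50 times those of *DnaJ-1* in replicates 1 to 4, a ratio that scaling does not change. Replicates 2 and 4 thus held more *Hsc70-4* per *DnaJ-1* than replicates 1 and 3.

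Among the 4 small Hsp genes of the set that were measured, *l(2)efl* was the highest in every replicate. It had 141, 108, 69.3 and 131 CPM in replicates 1 to 4, a mean of 112 ± 31.9 CPM (SD, n = 4), with replicate 3 lowest. The gene lies on chromosome 2R, apart from the others, and within the span of *St3* on the opposite strand. *St3*, with 27.2 to 51.6 CPM, shares 75 bp of exon with it. In each library *l(2)efl* had at least 4.24 times the level of *Hsp27*, and up to 18.4 times.

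*Hsp22*, *Hsp23*, *Hsp26* and *Hsp27* lie in a single cluster on chromosome 3L, from 9372931 to 9385694 of dm6. *Hsp22* encodes a mitochondrial small Hsp and shares its whole span and its annotated end with *CG4456* on the same strand, and both are not analysed here. *Hsp23*, *Hsp26* and *Hsp27* have no annotated intron. *Hsp23*, a cytosolic small Hsp, had 7.44, 16.2, 9.71 and 10.1 CPM in replicates 1 to 4, a mean of 10.9 ± 3.74 CPM (SD, n = 4). *Hsp26*, also cytosolic, had 3.87, 12.0, 7.08 and 9.46 CPM, a mean of 8.09 ± 3.45 CPM (SD, n = 4). Both were highest in replicate 2 and lowest in replicate 1. *Hsp27*, whose protein is found in the nucleus, had 17.2, 5.84, 16.3 and 10.5 CPM, a mean of 12.5 ± 5.33 CPM (SD, n = 4), and was lowest in replicate 2. Its end overlaps the pseudogene *CR43483* on the opposite strand by 49 bp.

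The balance between these neighbours differed from library to library. *Hsp27* had 4.44 times the counts of *Hsp26* in replicate 1 (95% exact interval for counting error 3.28 to 6.12) and 0.489 times in replicate 2 (0.358 to 0.662). In replicate 3 the ratio was 2.31 (1.70 to 3.16) and in replicate 4 it was 1.11 (0.840 to 1.47). No interval of the 4 replicates overlaps another. These ratios are formed within a library and do not depend on scaling. *Hsp23* and *Hsp26* kept closer company, with ratios of 1.92, 1.35, 1.37 and 1.07, and *Hsp23* was the higher of the pair in all 4 replicates, although the counting intervals of replicates 3 and 4 include equal levels. The sum of *Hsp23*, *Hsp26* and *Hsp27* stayed within 28.5 to 34.0 CPM, a mean of 31.4 ± 2.57 CPM (SD, n = 4), when scaled by library totals. With TMM scaling *Hsp23*, *Hsp26* and *Hsp27* had 6.46, 3.36 and 14.9 CPM in replicate 1, against 11.4, 8.32 and 19.2 CPM in replicate 3. All 3 were thus lower in replicate 1, and the narrow range of the sum depends on the scaling. *Hsp27* was lowest in replicate 2, where the other pair was highest.

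**Figure D2:**
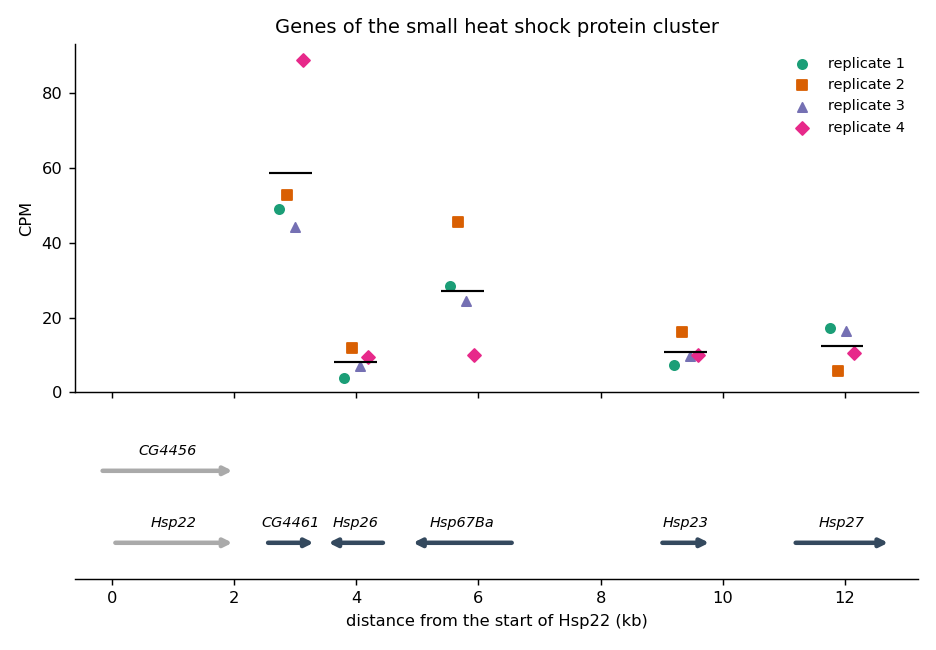
Protein-coding genes of the small heat shock protein cluster, drawn to scale as arrows in the direction of transcription by distance from the start of *Hsp22*, with the CPM of each measured gene in the 4 replicates above its midpoint and the mean as a line. *CG4461* had the highest mean of the measured genes there, at 58.6 CPM, and *Hsp26* the lowest, at 8.09 CPM, and the genes with grey arrows (*Hsp22*, *CG4456*) were not analysed.

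A pair of further small Hsp genes measured in this cluster were higher than the named members. *CG4461* had 48.8, 52.8, 44.1 and 88.8 CPM in replicates 1 to 4, and *Hsp67Ba* had 28.4, 45.5, 24.3 and 9.92 CPM. *Hsp67Ba* was lowest in replicate 4, where *CG4461* was highest. Their means, 58.6 ± 20.4 and 27.0 ± 14.6 CPM (SD, n = 4), were both above those of *Hsp23*, *Hsp26* and *Hsp27*, although *Hsp67Ba* was below *Hsp27* and *Hsp23* in replicate 4.

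*Hsp68* encodes a heat-inducible Hsp70 and had the lowest level. Its counts were 35, 16, 1 and 18 in replicates 1 to 4, which gave 2.61 CPM (95% Wilson interval 1.87 to 3.62 CPM), 1.44 CPM (0.886 to 2.34 CPM), 0.114 CPM (0.0202 to 0.647 CPM) and 1.69 CPM (1.07 to 2.66 CPM). The other libraries predicted 16.7 counts in replicate 3. Of the 789 genes with a prediction of 10 to 20 counts there, 49.0% had 0 or 1 counts. The counts of *Hsc70-4* were 160 times those of *Hsp68* in replicate 1 (95% exact interval 114.7 to 229), 304 times in replicate 2 (187 to 533) and 385 times in replicate 4 (243 to 649), and in replicate 3 with a single count of *Hsp68*, the interval of the ratio began at 406. The annotated end of *Hsp68* overlaps that of *CG6000* on the opposite strand by 13 bp.

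The order of mean levels was *Hsc70-4*, *Hsc70-3*, *Hsp83*, *l(2)efl*, *DnaJ-1*, *Hsp27*, *Hsp23*, *Hsp26* and *Hsp68*. Of the 8 pairs of neighbours in this order, 6 kept it in all 4 replicates. The pairs and their direction were taken from the means of these same libraries, which favours such agreement in advance. *Hsc70-3* was above *Hsp83* in 3 of 4 replicates, with a mean log2 ratio of 0.44 ± 0.45 (SD, n = 4), and *Hsp27* was above *Hsp23* in 3 of 4, with 0.14 ± 1.17 (SD, n = 4). Neither pair differed beyond its spread (two-sided exact sign-flip permutation tests, p = 0.25 and p = 0.875). The widest step beside that to *Hsp68* was from *DnaJ-1* to *Hsp27*, with a log2 ratio of 2.51 ± 0.39 (SD, n = 4). With 4 replicates the smallest p this exact test can give is 0.125, which was reached by the 6 other pairs, so no step could pass 0.05.

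No library held all of the genes high or low. Among the 8 genes past the count minimum, 4 were highest in replicate 1 (*Hsp83*, *l(2)efl*, *DnaJ-1* and *Hsp27*), against 35.3% of all genes that passed this filter. *Hsp23*, *Hsp26* and *Hsc70-3* were highest in replicate 2 and lowest in replicate 1, and *Hsc70-4* was highest in replicate 4. The lowest value fell in replicate 3 for *l(2)efl* and *Hsc70-4*, 2 of the 8, against 43.7% of all genes. With TMM scaling *Hsp27* was highest in replicate 3 instead, and the 8 others, *Hsp68* included, kept their highest and lowest replicates.

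**Figure D3:**
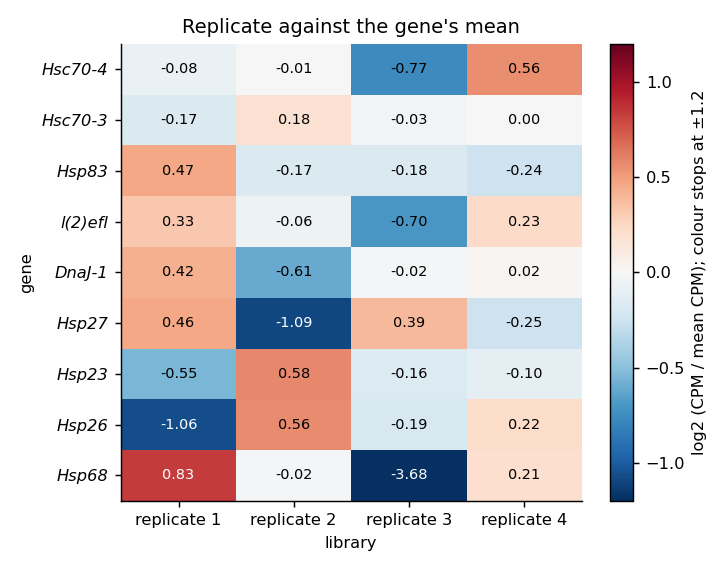
Log2 of each replicate's CPM over the gene's mean CPM for the 9 measured genes, with red above the mean and blue below it, and the value in each cell. *Hsp27* stood at -1.09 in replicate 2, where *Hsp23* and *Hsp26* stood at 0.58 and 0.56, and no column has a single colour.

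The spread between replicates was close to that of other genes. The highest replicate was more than 2 times the lowest for 6 of the 8 genes, against 55.1% of all 7754 genes, and the median of this ratio was 2.11 for the 8 and 2.12 for all. The 6 were *Hsp26*, *Hsp27*, *Hsc70-4*, *Hsp23*, *DnaJ-1* and *l(2)efl*, from 3.09 down to 2.03. The last pair lie just past the threshold. The count was 3 of 8 with TMM scaling, against 52.6% of all genes, and 2 of 8 without replicate 1, against 44.2%. *Hsp83* was the only gene of the 8 with a replicate far from the rest, against 5.16% of all genes. The biological coefficient of variation, the spread beyond counting noise as fitted gene by gene with edgeR, was 0.179 to 0.294 for the 5 genes of high level and 0.392 to 0.503 for *Hsp23*, *Hsp27* and *Hsp26*. Its median was 0.263 over the 8 genes and 0.308 over all genes. Of all genes fitted, 20.2% (*Hsp83*) to 46.8% (*Hsc70-4*) had a smaller value than the 5, and 66.1% to 80.8% a smaller value than the other 3, which are also of lower level.

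**Figure D4:**
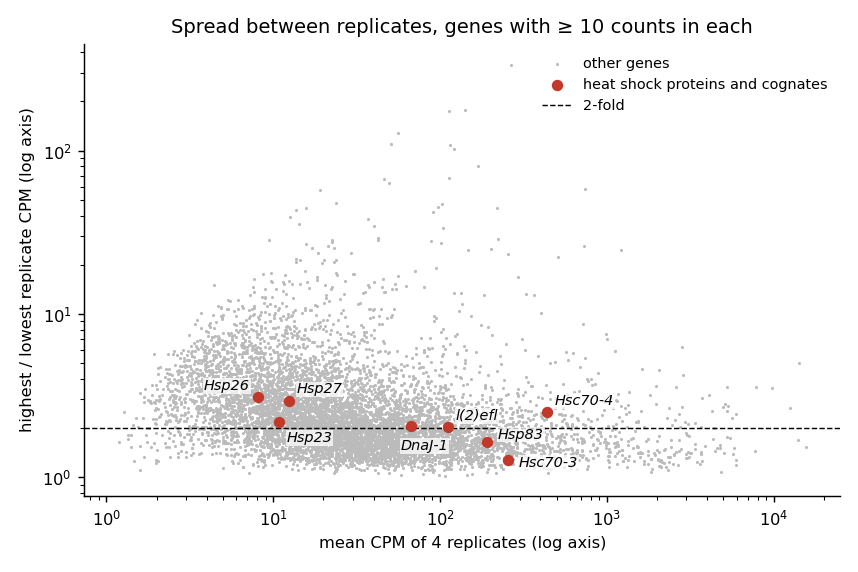
Ratio of the highest to the lowest replicate CPM against mean CPM, both on log axes, for genes that reached 10 counts in each library. The 8 heat shock protein and cognate genes, in red, lie between 1.28 and 3.09, inside the cloud of other genes of like level.

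The summed small Hsps had the profile of many other genes. Across the 4 replicates their log2 deviations from the mean were nearest to those of *CG34253*, *EDTP* and *snf*, at Euclidean distances of 0.049, 0.050 and 0.057 on the log2 scale, but 363 of the 6094 genes compared lay within 0.3. The sum, 169, 142, 102 and 161 CPM in replicates 1 to 4, consists mainly of *l(2)efl*.

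The 6 *Hsp70* gene copies, the genes most strongly induced by heat in flies, were detected in some libraries only. Their counts summed to 117, 10, 0 and 184 in replicates 1 to 4. This gave 8.71 CPM (95% Wilson interval 7.27 to 10.4 CPM) in replicate 1, 0.899 CPM (0.488 to 1.66 CPM) in replicate 2 and 17.2 CPM (14.9 to 19.9 CPM) in replicate 4. In replicate 3 a count of 0 allows up to 0.343 CPM when read as at most 3 counts, and the Wilson interval reaches 0.439 CPM. All 6 copies had counts in replicates 1 and 4 and none had a count in replicate 3, and single copies reached at most 4.68 CPM (*Hsp70Bc* in replicate 4). The copies are nearly identical, so their split is uncertain, and how reads with several map positions were counted is not given in the sources used here. *Hsp68*, the inducible family member among the 10 genes, was also lowest in replicate 3 but highest in replicate 1. Its 18 counts in replicate 4 were close to its 16 in replicate 2, unlike those of the copies. The median gene also stood above its own mean in replicates 1 and 4, by 0.20 and 0.13 on the log2 scale, and lowest in replicate 3, at -0.21. The heat shock factor gene *Hsf* itself had 48.2, 41.1, 45.8 and 54.4 CPM, the highest 1.32 times the lowest.

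Around the 10 genes, 101 other chaperone and co-chaperone genes were listed, of which 96 were measured and 76 met the count minimum. The median of the 96 was 22.98 CPM. Among the other small Hsps *CG14207* was highest, at 127 ± 29.1 CPM (SD, n = 4), followed by *CG4461*, and it was above *l(2)efl* in replicates 2, 3 and 4 but below it in replicate 1. Among the other Hsp70 family genes *Grp170*, of the endoplasmic reticulum, had 227 ± 85.2 CPM and *Hsc70-5*, the mitochondrial Hsp70, 216 ± 73.9 CPM (SD, n = 4 each), both between *Hsc70-3* and *Hsp83* in mean level. *Gp93*, the Hsp90 of the endoplasmic reticulum, varied little, with 76.3 to 80.3 CPM, and *Trap1*, that of mitochondria, had 10.6 CPM in replicate 3 and 41.8 to 59.8 CPM in the others.

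J proteins were the most numerous class, and 26 of 33 measured met the count minimum. *jdp* had 1281 ± 466 CPM and *CG3061* 301 ± 91.5 CPM (SD, n = 4 each), both above *DnaJ-1*. Among co-chaperones *p23*, a partner of Hsp90, had 724 ± 259 CPM, more than *Hsp83* in every replicate, and *stv*, which encodes a BAG family partner of Hsp70, 51.0 ± 18.4 CPM (SD, n = 4 each). All 16 measured genes of that class passed the count minimum. Of the endoplasmic reticulum genes, *Cnx99A* (calnexin) had 497 ± 164 CPM and *Calr* (calreticulin) 417 ± 119 CPM (SD, n = 4 each), both above *Hsc70-3* in mean level and in every replicate. Chaperonins, which enclose folding proteins in a ring, had a median of 23.1 CPM, led by the mitochondrial pair *CG11267* (Hsp10) at 135 ± 32.2 CPM and *Hsp60A* at 97.1 ± 20.4 CPM (SD, n = 4 each). The means of *jdp*, *p23* and *Cnx99A* exceeded that of *Hsc70-4*, the highest of the 9 measured genes. In replicate 4, *Hsc70-4* was above *p23* and *Cnx99A*, and *jdp* was above it in all 4 libraries.

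**Figure D5:**
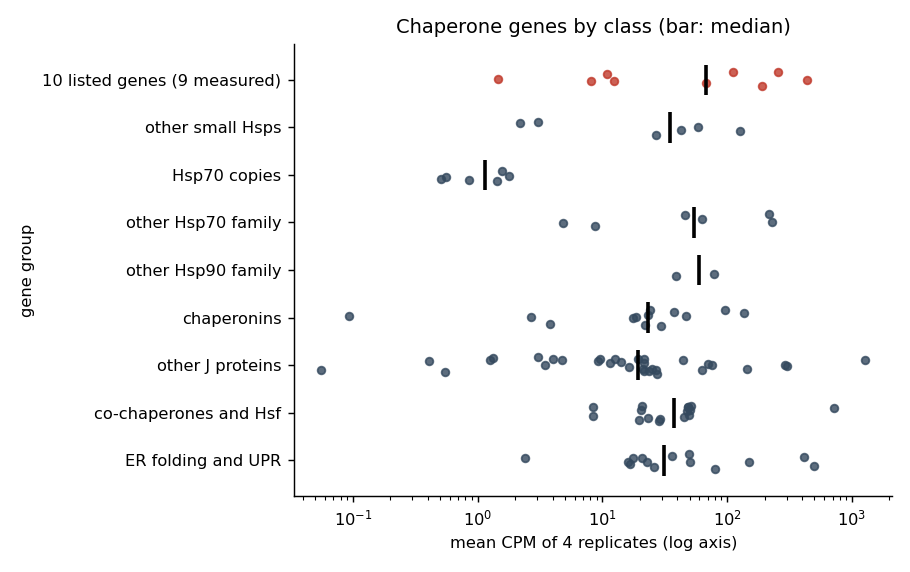
Mean CPM over 4 replicates, on a log axis, of the 9 measured genes (red) and of 96 other chaperone genes by class (dark), each point a gene and each bar the median of its class. The medians run from 1.14 CPM for the *Hsp70* copies to 67.2 CPM for the 9 genes, and the J protein gene at 0 in every library is not drawn.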

How the data were processed

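The authors used fastp for trimming and STAR 2.6.1b for mapping 3′-seq reads to dm6, and deposited raw read counts per gene from featureCounts, not normalized and not pooled. The libraries were made from 10 ng of total RNA, for which the paper refers to the preparation from cross-linked head powder described above. The paper names an Ensembl annotation for read counting of its RNA-seq, but not specifically for the 3′-seq counts. The strand setting and treatment of multi-mapping reads of these counts are not given in the sources used here. Reads carry no molecular identifiers, so intervals cover counting error only.

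Genes were matched by FlyBase identifier to Ensembl release 115 of dm6, and 5 genes of the wider lists and *Hsp22* are not analysed here. Counts were divided by the library total (CPM). Levels are mean ± SD of 4 replicates, with 95% Wilson or exact intervals, and 0 counts were read as allowing up to 3. Spread was fitted with edgeR 4.0.16 (R 4.3.3, TMM, an intercept only, a minimum of 10 counts in each library). The default shrinkage of edgeR understated large spreads in simulated data in which nearly all genes shared a single spread, unlike the real genes. Whether it does so in the real data was not tested. Unshrunk gene-wise estimates, chosen after this, are given. In the simulation their medians were close to the value expected for 4 replicates, which lies somewhat below the true spread. Neighbours in the order were compared by exact sign-flip permutation tests. A replicate was called far from the rest when its gap to the nearest, divided by the range, exceeded 0.829. DESeq2 1.42.0 gave alternative size factors. Other steps used Python 3.11.15 and scipy 1.17.1.

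Named genes are the 10 members, the *Hsp70* copies, the 2 highest genes of each other class, the genes of the cluster and the 3 of nearest profile. *Hsf*, *Hsp60B*, *Hsp60C*, *Hsp60D*, *CG1416*, *Ero1L*, *CG5001*, *Dph4* and the overlapping genes were chosen after their values were seen. The members and lists were chosen with earlier results of these data known. Planned promoter motifs and protein identities were not run.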

Additional observations from a re-analysis of the deposited data

Results flagged for a closer look

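Of 43 values examined, 7 had a replicate far from the other 3, where chance alone would mark about 1 in 20. *Hsp83* was high in replicate 1, at 264 CPM against 161 to 170 CPM in the others, with a gap of 0.918 of the range. The gap was 0.384 with TMM scaling and 0.365 with the size factors of DESeq2. The mitochondrial chaperonin genes *CG11267* and *Hsp60A* were low in replicate 3, at 87.5 CPM against 146 to 155 CPM (gap 0.855) and at 66.8 CPM against 103 to 110 CPM (gap 0.837). Replicate 3 was the lowest library for 43.7% of all genes. It also had the lowest TMM factor, 0.851, so TMM scaling raises its levels relative to the other libraries. The gaps of genes other than *Hsp83* given here rest on library totals and were not recomputed with other scaling.

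The other 4 are sums of tissue markers. The midgut markers (gap 0.928), the male accessory gland markers (gap 0.838) and the testis markers (gap 0.847) were high in replicate 1, and the head fat body markers (gap 0.922) in replicate 4, at 431 CPM against 264 to 277 CPM.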

How the results depend on the processing

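The number of the 8 genes whose highest replicate was more than 2 times the lowest depended most on the processing. It was 6 as reported, 3 with TMM scaling and 3 with the size factors of DESeq2, beside 55.1%, 52.6% and 52.9% of all genes. With a replicate left out it was 2 to 5, beside 34.4% to 46.1% of all genes. The lowest number, 2 without replicate 1, went with a share of 44.2%. The lowest share, 34.4% without replicate 3, went with a number of 4. A range over fewer replicates is smaller by construction, and the cause of the fall with scaling was not tested. The summed level of the 9 genes stayed at 1088 CPM with TMM scaling and between 1032 and 1182 CPM with a replicate left out, against 1098 CPM, and the steps of the order kept in every replicate numbered 5 to 7, against 6. The share of all genes highest in replicate 1 was 21.4% with either other scaling, against 35.3%, and 3 (TMM) or 2 (DESeq2) of the 8 genes were highest there, against 4. These last alternatives, the shrinkage below and those for the gap of *Hsp83* were chosen after seeing the data. No paired analysis was possible because all libraries belong to 1 group. With the default shrinkage of edgeR the median coefficient of variation was 0.336 for the 8 genes and 0.376 for all genes, against 0.263 and 0.308. Alternatives for promoter motifs and protein identities were not run. *Hsp68* and the *Hsp70* copies rest on few counts.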

Other observations

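Among the chaperonin genes below the count minimum, *Hsp60B* and *Hsp60C*, which have roles in the male germ line among others, were highest in replicate 1. *Hsp60D*, also below the minimum, had counts in replicate 4 only, at 0.375 CPM. Of all genes that met the minimum, 35.3% were highest in replicate 1. *Hsp60B* had 7.67 CPM there, against 0.809, 0 and 2.15 CPM in replicates 2 to 4, and *Hsp60C* had 14.1 CPM, against 0.539, 0.571 and 0 CPM. The counts of 0 allow 0.343 CPM for *Hsp60B* in replicate 3 and 0.281 CPM for *Hsp60C* in replicate 4. The summed testis markers were highest in the same library, and their part in these values was not tested.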
